A study of Mus musculus with 168 samples.

Results

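The genes of the synaptic vesicle release machinery were followed in mouse brainstem and spinal motor neurons and in red nucleus neurons. The 36 genes were listed by name for their place in vesicle docking, priming, fusion and recycling, a rule that uses no measured value, although earlier results of these data were known when the list was drawn up. All 36 were found in the deposited table, in 37 of its 39410 rows, because Pclo was listed in 2 rows. The series holds 168 polyA RNA libraries made from laser-captured neurons, with about 150 cells in a tube. Averaged per mouse and population, they gave 160 samples from 34 mice of the delta7 model of spinal muscular atrophy (SMA), a motor neuron disease caused by loss of the SMN protein. SMA mice were Smn-/-/SMN2+/+/SMN∆7+/+, and the littermate controls were Smn+/+/SMN2+/+/SMN∆7+/+, so that both genotypes carried the human SMN2 and SMN∆7 transgenes. Mice were taken at postnatal day 2 (6 control and 9 SMA mice), day 5 (5 and 5) and day 10 (4 and 5), stages described as before symptoms, early and late. The 5 motor populations were ocular (oculomotor and trochlear), facial, vagus, hypoglossal and lumbar neurons, and each of the 36 pairings of a population with a genotype and an age was sampled in 3 to 7 mice.

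At a nerve terminal, transmitter is released when the vesicle SNARE protein VAMP zips up with syntaxin and SNAP-25 of the plasma membrane and pulls the membranes together. Active zone scaffolds such as RIM, bassoon, piccolo and ERC hold vesicles near calcium channels, Munc13 proteins prepare them for fusion, and complexins clamp and assist the assembled SNAREs. Somatic motor neurons release acetylcholine onto muscle through this machinery, vagal motor neurons do so onto autonomic ganglia, and red nucleus neurons send glutamatergic axons to the spinal cord.

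Levels are given as RPKM, read counts scaled by transcript length and by library size, so that levels can be compared between genes. Differences are log2 differences of RPKM + 1 from limma, where a value of 1 is a doubling for well expressed genes, and adjusted p-values are Benjamini-Hochberg values over all genes tested. As estimated from the low values of each library, libraries held between 0.342 and 16.3 M reads, with a median of 5.89 M, and the shallowest was the red nucleus sample of control mouse 252 at day 10. Control group medians were 5.37 to 7.24 M reads at day 2 and 3.80 to 5.48 M at day 10. Smn1, the deleted gene, was at 4.32 to 63.3 RPKM in the 72 control samples and at 0 to 4.24 in the 88 SMA samples, 70 of which were listed at 0. In controls the summed level of 4 motor neuron markers was 659 to 1799 RPKM in the motor populations and 29.9 to 100.5 in red nucleus. They are the 4 found of Chat, Slc18a3, Slc5a7, Isl1 and Prph. Their sum is called the cholinergic sum below, although not all of them are cholinergic genes. Pou4f1 and Slc17a6 together were at 244.96 to 716 RPKM in red nucleus and at most 49.4 elsewhere. The lumbar gene Hoxc10 was at 62.9 to 113.1 RPKM in lumbar neurons and at most 0.190 elsewhere. In bulk samples such as these, fewer cells of a type and less RNA per cell cannot be told apart. Within a group the replicates are separate mice, and p-values weigh the group differences against the spread within groups. The 72 control samples came from 15 mice, and the main comparison of populations held no term for the mouse.

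The promoters of 4 of the genes that were called both between populations and with age are shown first. Each is the 250 bases before a RefSeq transcript start on GRCm38.p6, the build called mm10, printed 5′ to 3′ on the gene's strand. Capitals mark the GC box GGGCGG or the CCAAT box, on either strand. The Vamp1 window is chr6:125215331-125215580 on the plus strand and runs past the first annotated start of the gene at 125215551. The Cplx1 window is chr5:108550028-108550277 on the minus strand, the Stx1a window is chr5:135023232-135023481 on the plus strand, and the Erc2 window is chr14:27622157-27622406 on the plus strand.
Vamp1: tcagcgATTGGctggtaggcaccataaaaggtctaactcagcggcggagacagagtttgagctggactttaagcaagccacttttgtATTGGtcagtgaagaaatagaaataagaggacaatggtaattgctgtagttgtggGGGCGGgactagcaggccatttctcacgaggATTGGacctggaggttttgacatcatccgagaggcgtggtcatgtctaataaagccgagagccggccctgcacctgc
Cplx1: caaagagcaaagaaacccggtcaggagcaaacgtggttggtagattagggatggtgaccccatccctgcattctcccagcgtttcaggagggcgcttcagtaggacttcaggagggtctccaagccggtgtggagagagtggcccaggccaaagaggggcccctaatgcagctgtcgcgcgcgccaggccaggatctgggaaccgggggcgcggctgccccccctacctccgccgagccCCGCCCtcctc
Stx1a: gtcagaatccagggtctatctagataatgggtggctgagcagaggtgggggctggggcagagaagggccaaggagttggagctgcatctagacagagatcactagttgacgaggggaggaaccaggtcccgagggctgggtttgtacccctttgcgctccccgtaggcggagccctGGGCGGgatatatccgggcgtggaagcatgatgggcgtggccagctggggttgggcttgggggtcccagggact
Erc2: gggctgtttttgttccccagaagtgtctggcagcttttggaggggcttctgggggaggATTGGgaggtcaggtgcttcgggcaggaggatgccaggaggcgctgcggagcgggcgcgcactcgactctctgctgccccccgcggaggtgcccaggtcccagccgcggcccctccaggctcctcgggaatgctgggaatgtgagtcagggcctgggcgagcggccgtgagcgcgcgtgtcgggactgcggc

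Vamp1 and Cplx1, which were low in vagus and rose with age, share a GC box but have no other searched motif in common, since the 3 CCAAT boxes are found in the Vamp1 window only. The Stx1a window holds 1 GC box and the Erc2 window 1 CCAAT box. Of the 36 genes, 29 had an entry in the promoter table, with 35 starts. A GC box was present in 21 of the 35 windows, against 32.7% of all 32851 windows of the same length, and a CCAAT box in 11, against 33.8%. The TATA box TATAAA was found in 3 windows (12.4% of all windows), the cyclic AMP element TGACGTCA in that of Syn1 only (1.55%), and the motif AAGGTCA in none (4.08%). Median GC content was 61.2% in the 35 windows and 52.4% in all windows.

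In control motor neurons the genes spanned a wide range of levels. Sncg, which encodes gamma-synuclein, had the highest mean over the motor populations at 3283 RPKM, followed by the vesicle GTPase gene Rab3a at 1052, the plasma membrane SNARE gene Snap25 at 1007, the complexin gene Cplx1 at 687 and the vesicle membrane gene Syp (synaptophysin) at 436. Vamp1 averaged 226.8 and Vamp2 151 RPKM, and the scaffold genes were lower, with Bsn at 19.5, Erc2 at 17.1 and Rims1 at 14.1 RPKM. Rims2, Syn3 and Unc13b averaged 3.36, 3.33 and 3.24 RPKM. Cplx3, a complexin best known from retinal ribbon synapses, averaged 0.205 RPKM and was listed at 0 in most samples. It was tested only in ocular neurons, in the fit of all controls and in a fit of all samples. The fit of all controls it entered through 3 ocular samples of day 10 and 1 hypoglossal sample at 1 RPKM or more. Its calls are thus not independent of the filter. They are marked where the main counts hold them, and only its levels are described. The other 36 rows passed the filter on low values in every fit.

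**Figure D1:**
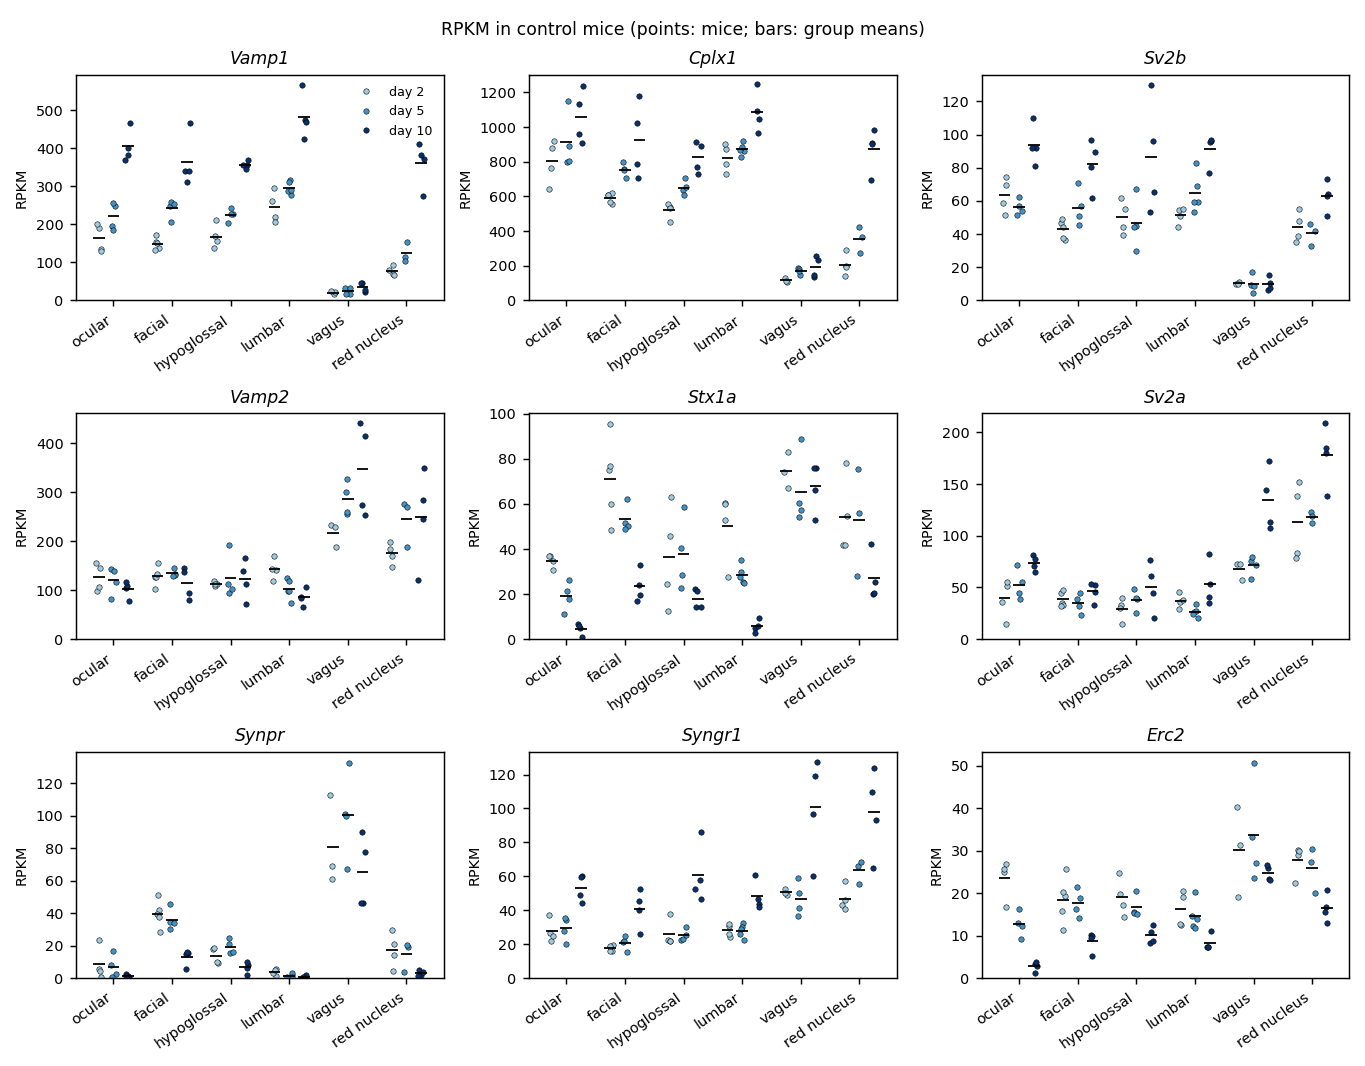
RPKM of 9 genes in control mice on a linear axis, by population and age (days 2, 5 and 10), each point a mouse and each bar a group mean. Vamp1, Cplx1 and Sv2b are lowest in vagus at every age, where Vamp2, Stx1a, Synpr and Syngr1 are high, and Erc2 and Stx1a fall with age in ocular and lumbar neurons.

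Populations were compared in the 72 control samples, averaged over the 3 ages. A test over the 6 populations passed the adjusted threshold of 0.05 for 34 of the 37 rows, against 44.5% of all 19621 genes tested, and did not for the synapsin gene Syn1 (adjusted p = 0.084), the Munc13 gene Unc13a (0.478) and the SNARE-disassembling ATPase gene Nsf (0.177). Against the mean of the other motor populations, vagus had 17 rows higher and 7 lower (background 15.6% and 13.2%), ocular 10 and 8 (7.96% and 11.4%), lumbar 7 and 9 (8.70% and 8.52%), facial 5 and 6 (4.74% and 2.90%) and hypoglossal 4 and 4 (5.55% and 3.05%). Each motor contrast but that of vagus has vagus in its comparator. Cplx3 is 1 of the 34 rows that differed among populations and 1 of the 10 higher rows in ocular neurons, calls that are not independent of the filter. Red nucleus against the 5 motor populations had 15 higher and 10 lower (8.82% and 13.1%). All 24 vagus calls held when any mouse was left out and in each alternative processing. The median difference of the 37 rows in vagus was 0.22, against 0.00 for all genes.

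**Figure D2:**
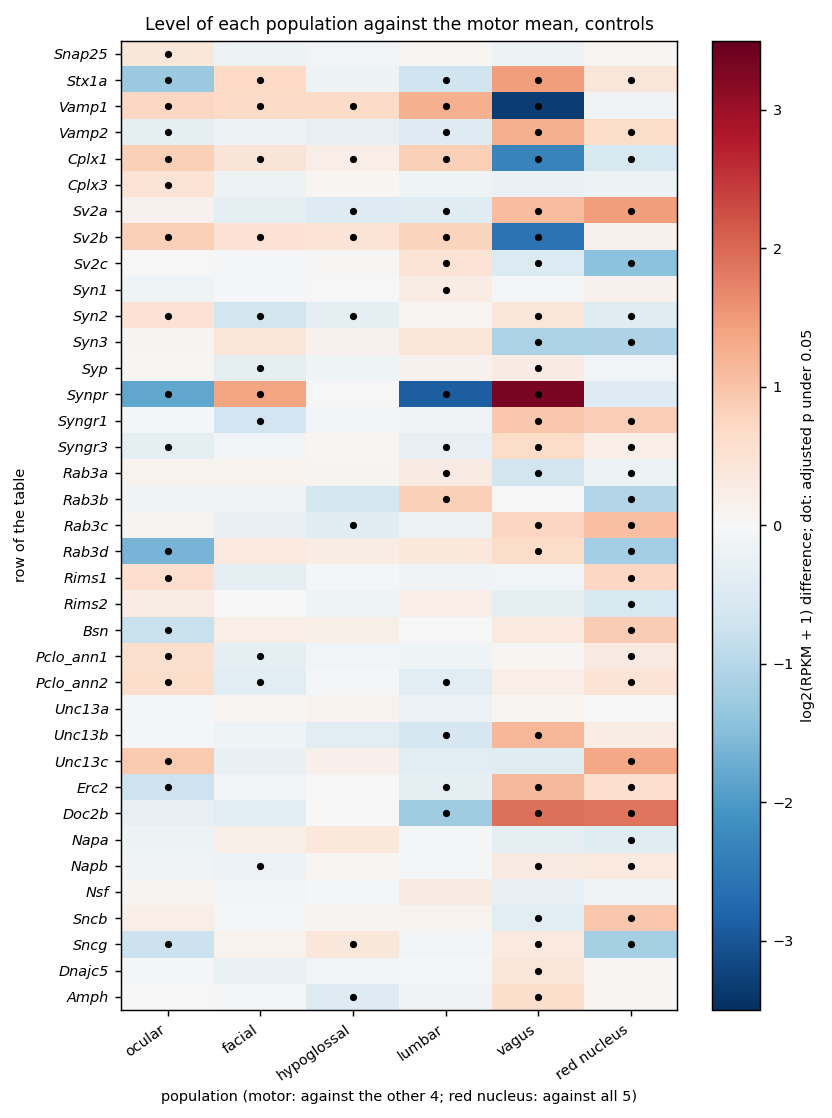
Heat map of log2 differences in control mice, averaged over the 3 ages, with the release genes in rows and the 6 populations in columns, each motor population against the mean of the other motor populations and red nucleus against all 5. Dots mark an adjusted p under 0.05. The vagus column holds the widest differences, from -3.31 for Vamp1 to 3.33 for Synpr.

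Among the SNARE and complexin genes, the paralogs went opposite ways in vagus. Vamp1 was at 16.4 RPKM in the lowest, 23.4 in the median and 44.5 in the highest of the 11 vagus samples. The same values were 130, 224.2 and 467 in ocular, 133, 249 and 467 in facial, 137, 227.9 and 370 in hypoglossal, 206, 297 and 567 in lumbar, and 65.5, 115.3 and 411 in red nucleus. No vagus sample reached the level of any other sample. The vagus difference was -3.31 ± 0.09 (SE, adjusted p = 8.46e-40). Against comparators that hold vagus, Vamp1 was higher in lumbar (1.25), ocular (0.72), hypoglossal (0.68) and facial (0.66) neurons. Its mean levels over the ages were 342 RPKM in lumbar, 263 in ocular, 252 in facial, 250 in hypoglossal and 26.6 in vagus neurons. Vamp2, the other vesicle SNARE gene, was at 188.3, 260 and 442 RPKM in vagus and at 65.2 to 191.997 RPKM in all samples of the other motor populations. Its vagus and other motor ranges met only at their edges, and the difference was 1.24 ± 0.11 (adjusted p = 1.16e-14).

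Cplx1, whose product binds the assembled SNARE bundle, was at 106.8, 149 and 256.96 RPKM in vagus and at 453 to 1246 in the other motor samples, with no overlap (-2.35 ± 0.08, adjusted p = 5.93e-35). It was also lower in red nucleus, at 141 to 982 RPKM, than over the motor populations together (-0.55). Its paralog Cplx2, listed among the other pathway genes, differed by 1.38 in vagus (adjusted p = 1.42e-11), by 1.43 in red nucleus (4.17e-12) and by -1.90 in ocular neurons (3.76e-17). Stx1a, a plasma membrane SNARE gene, was at 53.01, 67.0 and 88.7 RPKM in vagus, against 0.814, 19.5 and 37.04 in ocular and 2.91, 27.4 and 60.6 in lumbar neurons. The vagus samples all lay above the ocular ones and overlapped the lumbar ones at the upper end. The differences of Stx1a were 1.47 in vagus and 0.68 in facial, against -1.30 in ocular and -0.68 in lumbar neurons. Its 0.44 in red nucleus was lost without any of 9 of the 15 control mice (adjusted p up to 0.194, without mouse 30). Snap25, the membrane partner of syntaxin, was higher in ocular neurons alone among these contrasts (0.39, 971 to 1614 RPKM). Cplx3 was at 2.94 RPKM in its highest ocular sample, at most 2.51 in hypoglossal and 0.228 in facial and lumbar samples, and was listed at 0 in all vagus and red nucleus controls.

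The level of Vamp1 relative to Vamp2 within a sample differed widely between populations. At day 10 the control median of the ratio was 5.55 in lumbar, 3.97 in ocular, 3.26 in facial, 2.86 in hypoglossal, 1.48 in red nucleus and 0.102 in vagus. The ranges of lumbar (5.28 to 6.50) and ocular (3.43 to 4.70) did not overlap, hypoglossal neurons (2.13 to 4.89) overlapped ocular, facial and red nucleus samples (1.09 to 2.26), and the vagus samples (0.0875 to 0.107) lay far under all others. The ratio of Sv2b to Sv2a, a pair of vesicle glycoprotein genes, was 0.0549 to 0.217 over the 11 vagus controls and 0.232 to 0.707 over the 11 red nucleus controls, so that these ranges did not meet. In the remaining motor populations its group medians were 1.08 to 2.54.

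**Figure D3:**
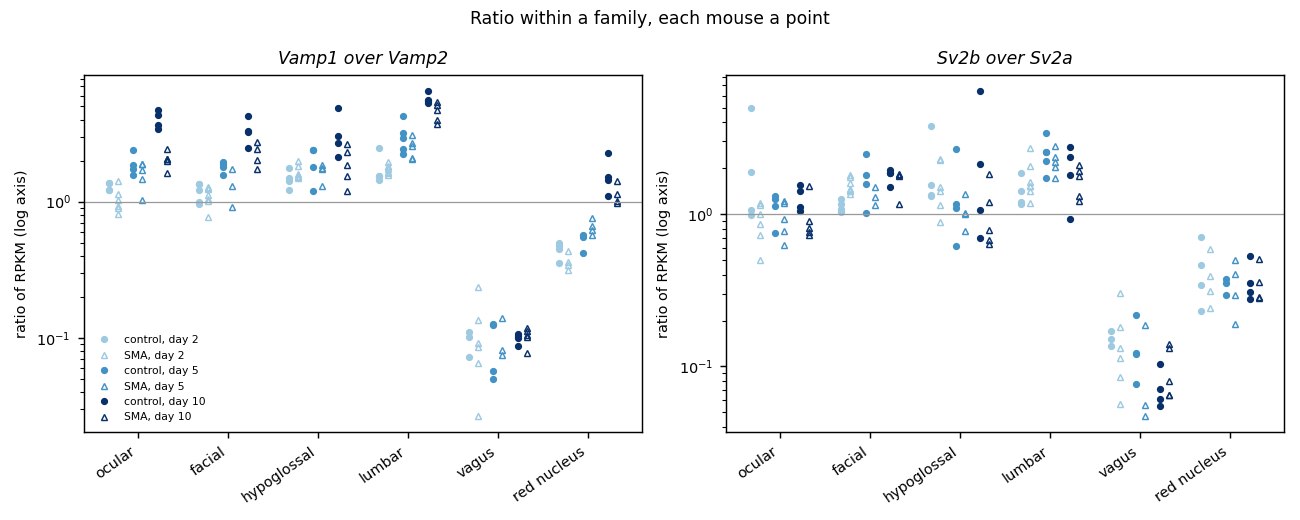
Ratio of Vamp1 to Vamp2 and of Sv2b to Sv2a within each mouse sample, on a log axis, by population and age, with filled points for control and open points for SMA mice. Vagus lies lowest in both panels, and the Vamp1 to Vamp2 ratio climbs with age in the other populations.

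The vesicle membrane genes split in the same 2 directions. Sv2b was at 4.46, 9.71 and 17.3 RPKM in vagus and at 29.9 to 130 RPKM in the other motor samples, without overlap (-2.59 ± 0.11, adjusted p = 9.2e-29), and was higher in ocular (0.83), lumbar (0.77), facial (0.51) and hypoglossal (0.48) neurons, each against a comparator that holds vagus. Mean Sv2b levels over the ages were 71.1 RPKM in ocular, 69.1 in lumbar, 61.0 in hypoglossal, 60.3 in facial and 10.0 in vagus neurons. Sv2a was higher in vagus (1.07) and in red nucleus (1.46), where it was at 78.04, 138 and 208.6 RPKM, against 14.4 to 82.8 in the ocular, facial, hypoglossal and lumbar samples together. Its lower values in lumbar (-0.44) and hypoglossal neurons (-0.46) were lost without mouse 240 or 254 (adjusted p up to 0.0789) and without mouse 26, 34 or 247 (up to 0.120). Sv2c, whose product is also a botulinum toxin receptor, was lower in red nucleus (-1.43, 3.78 to 17.1 RPKM) and in vagus (-0.49) and higher in lumbar (0.48). Synpr, a synaptophysin relative, was the widest of all: 46.1, 77.6 and 133 RPKM in vagus, 5.45, 33.8 and 51.1 in facial, 2.11, 12.7 and 24.9 in hypoglossal, 0.871, 2.67 and 23.5 in ocular and 0, 1.45 and 5.32 in lumbar neurons. Vagus overlapped only facial neurons, and only at the edge. The differences were -2.90 in lumbar and -1.82 in ocular neurons, against 1.37 in facial and 3.33 in vagus neurons.

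Syngr1 and Syngr3, which encode synaptogyrins, were higher in vagus (0.94 and 0.64) and in red nucleus (0.86 and 0.23), the last of which was lost without mouse 30 or 254 (adjusted p up to 0.115). Syngr1 was lower in facial neurons (-0.67), and Syngr3 in ocular (-0.33) and lumbar (-0.28) neurons. Syp was higher in vagus (0.29) and lower in facial neurons (-0.35). Astrocyte marker sums were 367 to 800 RPKM in the vagus controls and 1051 to 2100 in the other motor controls, and 6 of 7 oligodendrocyte markers were called lower and Cnp higher in vagus. Group medians of the inhibitory neuron sum (4 markers) were 21.6 to 54.7 RPKM in vagus and 0.769 to 38.4 in the other motor controls, and those of the microglia sum (7 markers) 15.9 to 42.9 and 7.60 to 17.6. The part of these cells in the vagus differences was not tested.

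Synapsins hold vesicles in the reserve pool, and synucleins bind vesicle membranes. Syn2 was higher in ocular (0.50) and vagus (0.42) neurons and lower in facial (-0.63), red nucleus (-0.43) and hypoglossal (-0.35) neurons. Syn3 was lower in vagus (-1.10) and red nucleus (-1.08), with medians of 0.830 and 0.645 RPKM against 3.202 to 4.33 elsewhere. It shares 1733 exon bases on the opposite strand with Timp3, and reads of the pair cannot be separated if strand was not used in counting. Syn1 was called in lumbar alone (0.25), lost without any of 8 of 15 mice (adjusted p up to 0.0891, without mouse 240). Sncg was lower in red nucleus (-1.15, 815 to 2088 RPKM) and ocular neurons (-0.74, 1698 to 2664) and higher in hypoglossal (0.38) and vagus (0.33) neurons. Sncb, the beta-synuclein gene, was higher in red nucleus (0.95, 152 to 533 RPKM) and lower in vagus (-0.40).

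The 4 Rab3 genes encode GTPases that bring vesicles to RIM at the active zone. Rab3a was lower in vagus (-0.65) and higher in lumbar neurons (0.30). Its red nucleus value of -0.18 was lost without any of 8 of 15 mice (adjusted p up to 0.188, without mouse 247) and with a block for the mouse (-0.17, adjusted p = 0.0774). Rab3b was lower in red nucleus (-1.03) and higher in lumbar (0.84), the latter lost without mouse 254 (adjusted p = 0.0712). Rab3c was higher in red nucleus (1.04) and vagus (0.76) and lower in hypoglossal neurons (-0.43). Rab3d was lower in ocular (-1.62, 0.342 to 6.32 RPKM) and red nucleus (-1.18) and higher in vagus (0.64).

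Among the active zone and priming genes, ocular and red nucleus neurons shared higher Unc13c (0.91 and 1.35), Rims1 (0.59 and 0.73) and Pclo. The 2 Pclo rows were at 0.56 and 0.62 in ocular neurons and at 0.30 and 0.47 in red nucleus. The 0.30 of the first Pclo row was lost without any of 7 of 15 mice (adjusted p up to 0.129, without mouse 254) and with a block for the mouse (0.29, adjusted p = 0.0577). In facial neurons the same rows were lower (-0.35 and -0.38), lost without any of 3 and 7 mice (adjusted p up to 0.0826 and 0.150, both without mouse 253). The second Pclo row was lower in lumbar too (-0.39), lost without mouse 247 (adjusted p = 0.0525). Bsn, the bassoon gene, was lower in ocular neurons (-0.78) and higher in red nucleus (0.89). Erc2, an active zone organizer, was higher in vagus (1.14, 19.0 to 50.6 RPKM) and red nucleus (0.59) and lower in ocular neurons (-0.72). Its lumbar value of -0.30 was lost without any of 10 of 15 mice (adjusted p up to 0.131, without mouse 34). Rims2 was lower in red nucleus (-0.55), lost without mouse 14, 30, 244 or 252 (adjusted p up to 0.0981).

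Doc2b, a high-affinity calcium sensor for release, was at 11.7, 20.9 and 23.3 RPKM in vagus and at 10.6, 23.4 and 45.8 in red nucleus, while ocular, facial, hypoglossal and lumbar medians were 3.05 to 5.26. Vagus and red nucleus overlapped each other, and the differences were 1.92 and 1.88, with -1.25 in lumbar. Doc2b shares exon bases with Gm12339 on the opposite strand. Unc13b, a Munc13 gene at low level, was higher in vagus (1.17). Its lumbar value of -0.59 was lost without any of 7 of 15 mice (adjusted p up to 0.0917, without mouse 253) and with a block for the mouse (-0.58, adjusted p = 0.0719).

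No call among the recycling and chaperone genes was wider than 0.63. Amph, the endocytic protein amphiphysin, was higher in vagus (0.63) and lower in hypoglossal neurons (-0.44). Dnajc5, the cysteine string protein that keeps SNAP-25 folded, was higher in vagus (0.43, 67.4 to 96.4 RPKM) and passed in no other of the population contrasts. Napb, a SNAP adaptor for Nsf, was higher in red nucleus (0.34) and vagus (0.31), and lower in facial neurons (-0.20), lost without mouse 34, 75, 240 or 244 (adjusted p up to 0.0726). Its relative Napa was lower in red nucleus (-0.44), lost without mouse 30, 34, 244 or 247 (adjusted p up to 0.0869).

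Ocular neurons, which are spared in the disease, and lumbar neurons, which are not, were set against each other directly, a contrast added after the data were seen. Of the 37 rows 9 were higher, 1 of them Cplx3, and 5 lower in ocular neurons (background 6.68% and 8.50%). Unc13c (1.04), both Pclo rows (0.57 and 0.81) and Rims1 (0.56) were higher, while Rab3d (-1.60), Bsn (-0.63), Sncg (-0.52) and Vamp1 (-0.43) were lower. The other 5 calls were lost without single mice: Doc2b (0.77) without mouse 75 (adjusted p = 0.0508), and Synpr, Sv2a, Syn2 and Syn1 without any of 5 to 12 mice (adjusted p up to 0.181). A block for the mouse also ended the calls of Syn2 (0.29, adjusted p = 0.0646) and Synpr (0.85, 0.0529). Leaving out mouse 75 brought the count of calls from 14 to 9.

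Maturation was read as day 10 against day 2 within controls, population by population. Over the 6 populations 40 of the tests, 36 rows per population and also Cplx3 in ocular neurons, were higher at day 10 (18.4%, background 3.38%) and 23 lower (10.6%, background 3.67%), in 26 of the rows. When each fit held day 2 and day 10 controls alone, the counts were 21 and 12, and 32 of the 63 calls were kept. The other 31 ended, with adjusted p of 0.0502 to 0.207. They were Sv2a and Rab3a in ocular; Snap25, Cplx1, Sv2c, Syn1, Syn2, Syp, Erc2 and Nsf in facial; and Sv2a and Syngr3 in vagus neurons. In hypoglossal neurons Syp, Syngr1, Unc13b, Erc2 and Sncb ended, in lumbar neurons Cplx1, the second Pclo row and Doc2b, and in red nucleus 11, which leaves Vamp1, Cplx1, Syp and Napb. Ocular neurons had 7 higher and 3 lower (background 4.38% and 3.64%), facial 11 and 4 (2.60% and 2.76%), hypoglossal 5 and 2 (2.43% and 2.68%), lumbar 6 and 8 (4.76% and 7.25%), red nucleus 9 and 6 (5.72% and 5.42%), and vagus 2 and 0 (0.581% and 0.437%). The median difference of the tested rows was -0.12 in ocular, 0.16 in facial, 0.24 in vagus, 0.21 in hypoglossal, -0.07 in lumbar and 0.33 in red nucleus, against 0.06, -0.04, -0.07, -0.02, -0.10 and -0.01 for all genes.

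Single mice moved several of these counts by more than 1.5 times. In ocular neurons the count of higher rows was 4 without mouse 244 and 3 without mouse 253 or 254, and in facial neurons 6 without mouse 253. In vagus it was 1 without mouse 26, 240, 253 or 254 and 5 without mouse 252, and 1 row was lower without mouse 207 or 250. In hypoglossal neurons 3 rows were higher without mouse 28, 244, 253 or 254 and 0 lower without mouse 26, 247 or 254. In red nucleus 3 were lower without mouse 14 or 252. Oligodendrocyte marker sums had medians of 24.5 to 90.6 RPKM at day 2 and, at day 10, 504 in ocular, 275 in facial, 630 in hypoglossal, 917 in lumbar, 466.1 in red nucleus and 61.1 in vagus. Of these markers 7 of 7 were called higher at day 10 in ocular, lumbar and red nucleus samples, 6 in hypoglossal, 5 in facial and 0 of 6 in vagus. The astrocyte sum (7 markers) in red nucleus was 621 to 985 RPKM at day 2 and 1470 to 1853 at day 10, without overlap. The general neuron sum (6 rows) went from 5102 to 5991 RPKM there to 7369 to 8353, and its range at day 10 lay above that at day 2 in all 6 populations. Their part in the maturation results was not tested.

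**Figure D4:**
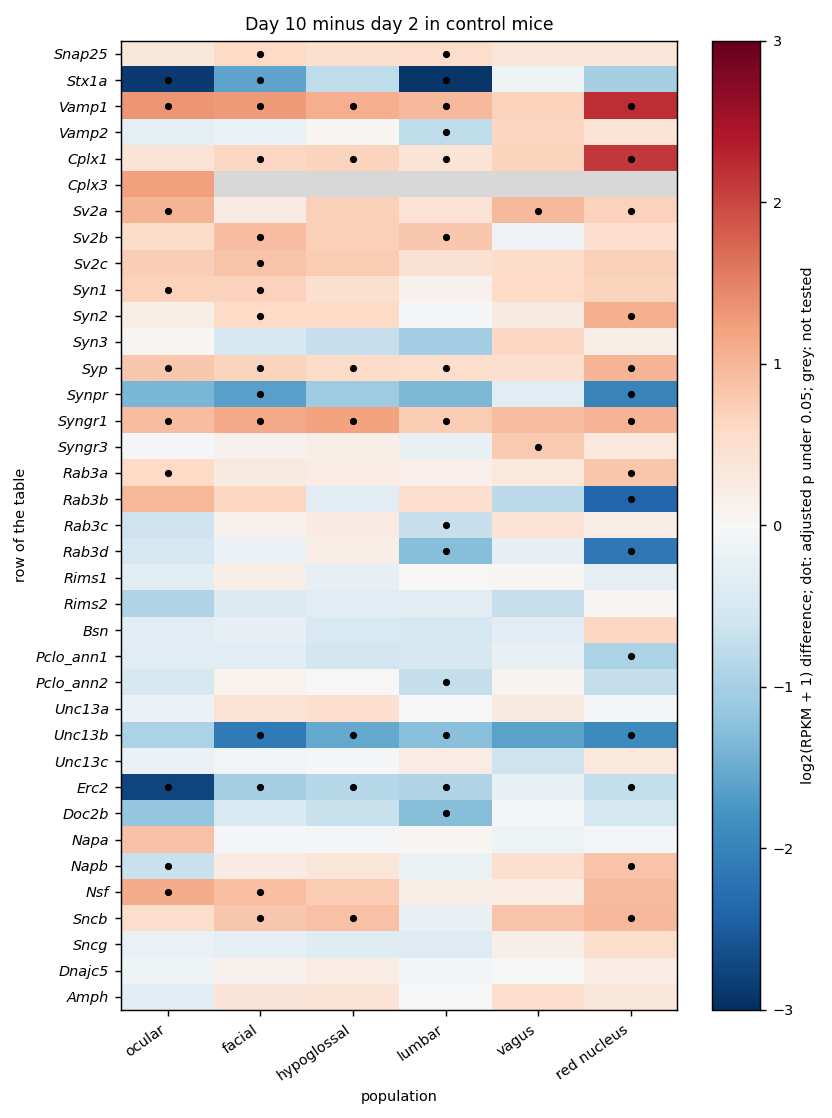
Heat map of the log2 difference between day 10 and day 2 in control mice, with the release genes in rows and populations in columns. Dots mark an adjusted p under 0.05 and grey a gene not tested. Rises of Vamp1, Syp and Syngr1 are dotted in 5 columns, falls of Erc2 in 5 and falls of Stx1a in 3.

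The rise of Vamp1 passed in all populations but vagus, where the estimate was also positive. In red nucleus the 4 control mice of day 2 were at 65.5, 70.3, 79.8 and 92.0 RPKM and those of day 10 at 274, 373, 383 and 411. In lumbar neurons they went from 206, 219.2, 263 and 297 to 424, 468, 475 and 567, and in ocular neurons from 130, 135, 190 and 200 to 368, 383, 401 and 467. Day 5 mice lay between these in red nucleus and overlapped the upper day 2 mice in the other pair, and day 2 and day 10 did not overlap in any of them. The differences were 2.21 ± 0.19 in red nucleus (adjusted p = 1.28e-07), 1.32 in ocular, 1.27 in facial, 1.10 in hypoglossal and 0.98 in lumbar neurons. All 5 calls held in every leave-out and alternative. In vagus Vamp1 was at 17.0, 20.8 and 23.4 RPKM at day 2 and 22.3, 28.2, 44.4 and 44.5 at day 10, which overlap (0.70 ± 0.41, adjusted p = 0.495). A test of whether the change differed among populations passed for Vamp1 (adjusted p = 0.00205).

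Vamp2 fell in lumbar neurons, from 120, 141, 144 and 170.6 RPKM to 65.2, 84.9, 85.2 and 107.2 with no overlap (-0.75, adjusted p = 0.00265), and passed in no other population (-0.29 to 0.64). The control median of the Vamp1 to Vamp2 ratio accordingly went from 1.54 to 5.55 in lumbar, 1.30 to 3.97 in ocular, 1.22 to 3.26 in facial, 1.46 to 2.86 in hypoglossal and 0.458 to 1.48 in red nucleus, and was 0.102 at both ages in vagus.

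Cplx1 rose from 141, 191.8, 196.8 and 292 to 692, 899, 910 and 982 RPKM in red nucleus (2.11 ± 0.20, adjusted p = 5.36e-07), without overlap. It also rose in hypoglossal (0.67), facial (0.61) and lumbar (0.40) neurons. In ocular neurons it went from 644, 761, 879 and 922 to 908, 959, 1135 and 1234 RPKM, where the ages overlap (0.40, adjusted p = 0.126). Its change differed among populations (adjusted p = 3.54e-07).

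Of the plasma membrane SNARE genes, Stx1a fell with age in lumbar, ocular and facial neurons. In lumbar neurons it went from 27.5, 52.9, 60.1 and 60.6 to 2.91, 5.02, 5.98 and 9.51 RPKM (-2.93 ± 0.36, adjusted p = 8.82e-07), and in ocular neurons from 30.8, 34.6, 36.8 and 37.04 to 0.814, 5.00, 5.65 and 6.67 (-2.88 ± 0.41, adjusted p = 3.35e-05). Every day 10 mouse was lower than every day 2 mouse in both. In facial neurons it fell from 48.4, 60.2, 75.0, 77.0 and 95.4 to 16.9, 19.6, 24.3 and 33.001 (-1.57). In vagus the samples were at 67.0, 74.3 and 83.1 RPKM at day 2 and 53.01, 66.1, 75.9 and 76.1 at day 10 and overlapped (-0.15, adjusted p = 0.861). Hypoglossal (-0.76) and red nucleus (-0.99) values did not pass. The populations differed in this change (adjusted p = 0.00012). Snap25 rose in lumbar (0.53) and facial neurons (0.59), the latter lost without mouse 14, 240, 244, 247 or 252 (adjusted p up to 0.162).

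Of the vesicle membrane genes, Syp and Syngr1 had rises that passed in the same 5 populations as that of Vamp1. Syp went from 266, 294, 329 and 377 to 561, 606, 678 and 709 RPKM in red nucleus (1.02) and from 286, 299, 331 and 384 to 525, 529, 591 and 631 in ocular neurons (0.81), with no overlap in either. Its differences in facial (0.66), hypoglossal (0.57) and lumbar (0.52) neurons also passed. In vagus Syp was positive too (0.49) without passing, and its change was not shown to differ among populations (limma F test, adjusted p = 0.394). In SMA mice the rise of Syp passed in vagus alone. The SMA change minus the control change ran from -0.81 in red nucleus to 0.09 in vagus and passed in no population (limma, lowest adjusted p = 0.411). The facial call was lost without mouse 253 (adjusted p = 0.0611) and the hypoglossal one without mouse 26, 28, 240, 244, 253 or 254 (up to 0.170). Syp shares 875 exon bases with Gm14703 on the opposite strand.

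Syngr1 rose by 1.20 in hypoglossal, 1.13 in facial, 1.02 in red nucleus, 0.94 in ocular and 0.75 in lumbar neurons, the ocular call being lost without mouse 26, 253 or 254 (adjusted p up to 0.0531). In facial neurons its mice went from 15.7, 16.2, 18.2, 18.7 and 19.2 to 25.7, 40.4, 45.2 and 52.4 RPKM, without overlap. In vagus it was at 49.0, 50.0 and 52.5 RPKM at day 2 and 60.2, 96.6, 119.4 and 127.5 at day 10, which do not overlap either, yet the adjusted p was 0.0572 (0.93 ± 0.24). Syngr3 rose in vagus (0.79), lost without mouse 240 (adjusted p = 0.0517), and its change differed among populations (0.0445).

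Sv2a rose in ocular (1.02), vagus (0.96) and red nucleus (0.70), calls that were lost without mouse 244 or 253 (adjusted p up to 0.0909), without mouse 26, 253 or 254 (up to 0.0999) and without any of 16 of 23 mice (up to 0.160, without mouse 244). Sv2b rose in facial (0.92) and lumbar (0.82) neurons, and Sv2c in facial neurons (0.85), lost without mouse 26, 28, 252, 253 or 254 (up to 0.164). Synpr fell in facial neurons, from 28.2, 37.6, 39.5, 41.9 and 51.1 to 5.45, 14.7, 15.3 and 16.0 RPKM (-1.63), with no overlap. It also fell in red nucleus (-1.997), lost without mouse 14 or 252 (adjusted p up to 0.0534).

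Active zone and priming genes moved down where they moved. Erc2 fell in ocular neurons from 16.7, 25.0, 25.8 and 26.9 to 1.12, 2.89, 3.204 and 3.85 RPKM (-2.75 ± 0.40, adjusted p = 3.47e-05), with the day 5 mice between them at 9.08 to 16.3. It fell less in facial (-0.9998), lumbar (-0.90), hypoglossal (-0.85) and red nucleus (-0.73) samples. The hypoglossal call was lost without mouse 26, 247 or 254 (adjusted p up to 0.0783) and the red nucleus call without any of 12 of 23 mice (up to 0.105, without mouse 247). In vagus Erc2 was at 19.0, 31.3 and 40.2 RPKM at day 2 and 23.0, 23.4, 26.0 and 26.5 at day 10, with overlap (-0.22, adjusted p = 0.789). The difference among populations passed (adjusted p = 2.46e-05). Erc2 shares exon bases with an opposite-strand gene.

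Unc13b fell in facial (-2.11), red nucleus (-1.92), hypoglossal (-1.54) and lumbar (-1.26) neurons, the hypoglossal call being lost without mouse 26, 28, 247 or 254 (adjusted p up to 0.120). The red nucleus call of Unc13b ended with day 2 and day 10 controls alone (adjusted p = 0.0888). In lumbar neurons it went from 2.89, 2.98, 3.10 and 3.44 to 0.278, 0.406, 1.12 and 1.28 RPKM, with no overlap. In vagus its day 2 mice were at 9.41, 10.9 and 11.5 RPKM and its day 10 mice at 1.94, 2.71, 2.92 and 3.90, which do not overlap although the adjusted p was 0.0569 (-1.60 ± 0.41). Doc2b fell in lumbar neurons (-1.28), lost without mouse 244 or 254 (adjusted p up to 0.0819). The first Pclo row fell in red nucleus (-0.95), lost without any of 16 of 23 mice (up to 0.156, without mouse 252), and the second in lumbar (-0.72), lost without mouse 28, 244, 247, 252 or 253 (up to 0.156). Rims1, Rims2, Bsn, Unc13a and Unc13c passed in no population.

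The Rab3 genes diverged in red nucleus. Rab3a rose there (0.83) while Rab3b fell from 38.9, 51.8, 142 and 151 to 7.72, 11.8, 16.1 and 31.2 RPKM (-2.39), without overlap, and Rab3d fell from 5.54, 7.91, 7.92 and 12.3 to 0, 0.650, 2.30 and 2.33 (-2.14), also without overlap. All of these red nucleus calls ended when day 2 and day 10 controls alone were fitted (adjusted p = 0.0938 for Rab3a, 0.0717 for Rab3b and 0.0680 for Rab3d). Rab3a rose in ocular neurons too (0.61), lost without mouse 244, 253 or 254 (adjusted p up to 0.0776). In lumbar neurons Rab3c (-0.70) and Rab3d (-1.28) fell. The changes of Rab3b, Rab3c and Rab3d differed among populations (adjusted p = 0.0494, 0.00805 and 0.0314).

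Napb went opposite ways in a pair of populations. In ocular neurons it fell from 168.9, 172.5, 179.4 and 180 to 96.3, 98.7, 121.96 and 124.9 RPKM (-0.67), and in red nucleus it rose from 130, 132, 149 and 162 to 225.3, 250, 281 and 291 (0.87). Neither pair of ages overlapped, and the difference among populations passed (adjusted p = 1.16e-07). Nsf rose in ocular (1.11) and facial (0.90) neurons, lost without mouse 254 (adjusted p = 0.0542) and without any of 16 of 27 mice (up to 0.188, without mouse 254).

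Syn1 rose in ocular and facial neurons (0.70 in each), lost without mouse 244, 253 or 254 (adjusted p up to 0.0853) and without mouse 253 (0.0517). Syn2 rose in red nucleus (1.06) and facial neurons (0.59), the latter lost without any of 12 of 27 mice (up to 0.115, without mouse 247). Sncb rose in red nucleus (0.98), hypoglossal (0.89) and facial neurons (0.80), the hypoglossal call being lost without mouse 28, 244, 253 or 254 (up to 0.0874). Syn3, Sncg, Napa, Dnajc5, Amph and Cplx3 passed in no population in which they were tested.

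In total the change from day 2 to day 10 differed among populations for 11 of the 36 rows other than Cplx3 (background 3.57%). These were Stx1a, Vamp1, Vamp2, Cplx1, Syngr3, Rab3b, Rab3c, Rab3d, Erc2, Napb and Sncg. With Cplx3, whose 3 ocular samples of day 10 brought it past the filter, the count was 12 of 37 (32.4%). The count of 12 was 7 without mouse 240 or 254 and 6 without mouse 252. It was at most 11 whichever of the 15 control mice was left out, so each leave-out lost at least 1 row. Nearest the threshold were Rab3b, Vamp2 and Syngr3 (limma F test, adjusted p = 0.0494, 0.0461 and 0.0445).

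Further genes of the pathway, 96 genes in 97 rows from 4 lists, were counted in the same way. From day 2 to day 10 in controls, 13 rose and 6 fell of 91 tested in ocular (background 4.38% and 3.64%), 5 and 4 of 91 in facial (2.60% and 2.76%) and 2 and 1 of 89 in vagus neurons (0.581% and 0.437%). The counts were 8 and 4 of 90 in hypoglossal (2.43% and 2.68%), 11 and 9 of 88 in lumbar (4.76% and 7.25%) and 17 and 4 of 90 in red nucleus samples (5.72% and 5.42%), so that several lay near the background. Stx4a, a plasma membrane syntaxin, and Pacsin1, an endocytic membrane-bending protein, were among those that rose in vagus, and Lin7c, a scaffold, fell there. Against the other motor populations vagus had 36 of 93 rows higher and 16 lower (background 15.6% and 13.2%), ocular 11 and 17 (7.96% and 11.4%) and lumbar 15 and 16 (8.70% and 8.52%). Facial neurons had 2 and 8 (4.74% and 2.90%) and hypoglossal neurons 4 and 5 (5.55% and 3.05%), with fewer higher rows than the background share gives, and red nucleus had 20 and 11 against the motor mean (8.82% and 13.1%).

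In SMA mice the same comparison of day 10 with day 2 gave 32 higher and 22 lower of the tests (background 3.77% and 3.63%). Of the 63 control calls 62 had the same sign in SMA mice and 37 passed there too, with Syn1 in ocular neurons the one of opposite sign (0.70 in controls, -0.11 in SMA). By population 13 of 14 lumbar calls passed in SMA mice, 9 of 15 facial, 7 of 15 red nucleus, 4 of 10 ocular, 2 of 7 hypoglossal and 2 of 2 vagus calls. How often the control calls of all genes kept their sign or passed in SMA mice was not computed. These counts are thus not shown to be particular to the release genes. The mice differ between genotypes, but both comparisons of a population share a fit and its estimate of spread. The difference between the genotypes' changes was tested directly. It passed for none of the same tests (limma, background 0.0415%), with 23 at an unadjusted p under 0.05 (10.6%, background 6.92%). The lowest adjusted p was 0.328, for Vamp1 in hypoglossal neurons, whose change was 1.10 in controls and 0.40 in SMA mice (difference -0.70 ± 0.18).

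Genotype was compared at each age in each population. None of the 651 tests passed the adjusted threshold (limma, background 0.129%), and 43 were at an unadjusted p under 0.05 (6.61%, background 7.10%). No call appeared when any mouse was left out. The difference was positive in 351 tests and negative in 300. In 513 of the 651 tests (78.8%) the 95% interval lay within a log2 difference of 1 in either direction, so that larger differences fell outside the interval for those genes, and for the other tests they did not. A test of whether the genotype difference varied among populations passed for none of the 37 rows at any of the 3 ages (limma, background 0.395%). The lowest adjusted p was 0.289, and 5 tests were at an unadjusted p under 0.05. Cplx3 at day 5 is among these, a value that is not independent of the filter.

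**Figure D5:**
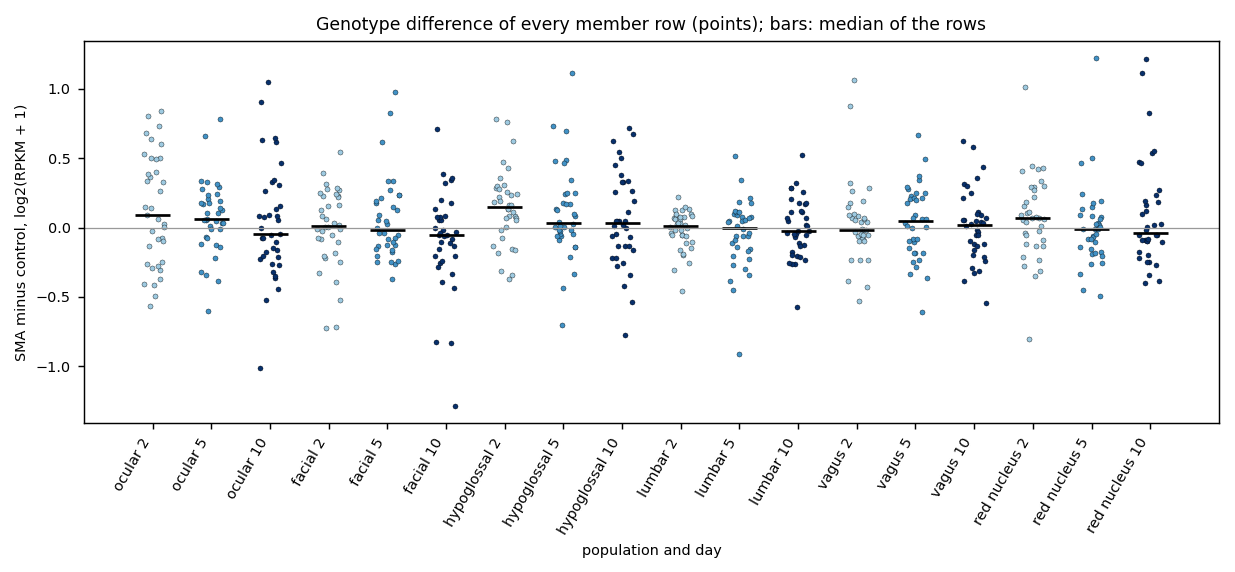
Log2 difference between SMA and control mice for every tested release gene in each of the 18 pairings of population and age, one point per gene and a bar at the median. The points spread on both sides of 0 in every pairing, and no point passed the adjusted threshold.

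The lowest adjusted p was that of Syn1 in ocular neurons at day 2. The control mice were at 101.6, 105.2, 109.3 and 115.8 RPKM and the 6 SMA mice at 155.97 to 181.4 (median 162), without overlap (0.60, 95% interval 0.24 to 0.96, adjusted p = 0.174). In the same group Nsf was at 104.5, 136, 142 and 144 RPKM in controls and 187.3 to 296 (median 233.2) in SMA mice, also apart (0.84, 0.33 to 1.35, adjusted p = 0.183). Syp was at 286 to 384 against 362 to 495 RPKM there and overlapped (0.40, adjusted p = 0.22). At that age and site 11.2% of all genes had an unadjusted p under 0.05, and 6 of the 37 rows did.

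At day 10, the late stage, the SNARE genes of ocular neurons were as follows. Vamp2 was at 78.3, 105.4, 108.6 and 117.2 RPKM in controls and 117.8, 142, 155.6, 160.7 and 219.02 in SMA mice, which abut without overlapping (0.62, adjusted p = 0.345). Stx1a was at 0.814, 5.00, 5.65 and 6.67 against 3.33, 7.30, 8.75, 15.0 and 17.1 RPKM, with overlap (1.05, 0.24 to 1.85, adjusted p = 0.583). Vamp1 was at 368, 383, 401 and 467 against 228.6, 285, 317, 332 and 434 RPKM, and the SMA mice lay lower with 1 among the controls (-0.37, adjusted p = 0.836). In hypoglossal neurons Vamp1 was at 344, 356, 356 and 370 RPKM in controls and 240, 274, 280, 297 and 321 in SMA mice, without overlap (-0.34, -0.62 to -0.07, adjusted p = 0.651). In those hypoglossal samples the inhibitory neuron sum (4 markers) had medians of 38.4 RPKM in controls and 73.8 in SMA mice, the cholinergic sum (4 markers) ranges of 1245 to 1479 and 899 to 1399, and the general neuron sum (6 rows) medians of 7643 and 6636. The red nucleus markers (2 genes) summed to 3.46 to 13.1 RPKM in controls and 17.7 to 26.996 in SMA mice. The part of these markers was not tested. In lumbar neurons, a population that degenerates in this model, Vamp1 differed by -0.26 (adjusted p = 0.387), Syp by -0.26 (0.334), Erc2 by -0.57 (0.286) and Napa by 0.53 (0.33).

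The within-sample ratio of Vamp1 to Vamp2 was compared between genotypes after the values had been seen. In ocular neurons at day 10 it was 3.43 to 4.70 in the 4 control mice and 1.62 to 2.42 in the 5 SMA mice, the only comparison of 18 in which the genotypes did not overlap. The log2 difference was -0.99, with a two-sided exact permutation p of 0.0159, the smallest this design allows. Some marker sums of the same samples are given beside it. The cholinergic sum was 926 to 1024 RPKM in controls and 452 to 875 in SMA mice, the general neuron sum 8332 to 9094 and 6765 to 7947, and the red nucleus marker sum 4.74 to 16.9 and 9.07 to 176.9. The first 2 did not overlap, and their part in the ratio was not tested. In lumbar neurons at day 10 the ranges were 5.28 to 6.50 and 3.72 to 5.40 (-0.33, exact permutation p = 0.0317). Adjusted over the 18 comparisons, 0 passed by the exact permutation test, with the lowest adjusted p at 0.229 and 2 raw p-values under 0.05. Group sizes set the smallest exact permutation p possible, from 0.00253 in facial neurons at day 2 to 0.0571 in facial, red nucleus and vagus samples at day 5. The latter could not have passed with any values, so the count of 0 does not show that the ratios were alike. The ratio was lower in SMA mice in 13 of the 18, and in 5 of 6 at day 10, vagus being the exception.

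A few genes had values of the same sign at several ages or sites, none past the adjusted threshold. Sv2c differed by 0.54 in facial neurons at day 2 and 0.83 at day 5, by 0.78 in ocular neurons at day 5, by 0.88 in vagus at day 2 and by 0.76 in hypoglossal neurons at day 2, each at an unadjusted p under 0.05 and an adjusted p of at least 0.318. Over all 18 comparisons Sv2c was higher in SMA mice in 12 and lower in 6 (down to -0.35). Vamp2 was higher in 16 (-0.15 to 0.62) and Unc13a lower in 16 (-0.39 to 0.43). The median difference of all genes was -0.008 to 0.13 in these comparisons, and populations of an age share mice. How often genes at large have such counts was not computed. In hypoglossal neurons at day 2 Sv2c in control mice was at 15.3, 18.8, 22.2 and 23.5 RPKM and in SMA mice at 28.7 to 38.8 (median 35.004), with no overlap. Syn3 in red nucleus differed by 1.02, 1.22 and 1.11 at days 2, 5 and 10, from control levels of at most 2.88 RPKM. Syp in red nucleus was at 266 to 377 against 384 to 506 RPKM at day 2 (0.41, adjusted p = 0.423) and at 561 to 709 against 431 to 530 at day 10 (-0.40, adjusted p = 0.715). The genotypes did not overlap at either age, and the sign was opposite. Among the 97 further pathway rows 1 of 1617 tests passed, Rph3a (rabphilin, a Rab3 effector) in facial neurons at day 10, lower in SMA mice (-0.78, adjusted p = 0.0452).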

How the data were processed

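The deposited table holds RPKM values per gene, made by the authors with STAR 2.4.1c as aligner and the mm10 and hg19 builds, per the submitters' processing notes. The counting tool, annotation and use of strand are not given in the sources used here. Per the labels' protocols, neurons were laser-captured and libraries made with Smart-seq2 and Tn5 tagmentation. Per the labels, 5 lumbar control libraries of day 5 include reads of an earlier deposit. They are all the libraries of that group. In the lumbar genotype comparison at day 5, and in the lumbar control means over the ages, the earlier reads cannot be told apart from the group.

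Libraries of the same mouse and population were averaged, which concerned 8 samples. Genes at 1 RPKM or more in as many samples as the smallest group were tested with limma 3.58.1 (R 4.3.3; trended empirical Bayes) on log2(RPKM + 1), a scale that understates the change of low genes. The unit is not counts, so no count model was used. Genotype and maturation within a population used 1 fit per population with its 6 groups. Populations, and whether maturation differed among them, used 1 fit of all controls. Whether the genotype difference varied among populations was tested in 1 fit of all samples with 36 groups. P-values were adjusted by Benjamini-Hochberg over all genes tested, with a threshold of 0.05. Depth was estimated from what 1 read is worth in 17340 single-transcript genes, where 64.3 to 78.6% of low values per library were whole reads within 0.01, too few for a count test. Scripts were tested on simulated data. Gene coordinates are from GENCODE M21 and promoters from RefSeq GRCm38.p6.

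Same-numbered samples come from the same animal, as the labels give mouse numbers. Deviations of 2 populations of a mouse correlated with a median of 0.0296 (150 pairs), against -0.00708 for different mice (568 pairs). The members and lists were chosen with earlier results of these data known. Every member is named, and mouse values are given for those with the widest calls. Alternatives were a pseudocount of 0.1, no filter, quantile normalization, only the 2 groups compared, each library as its own sample, no trochlear libraries, a block for the mouse and leaving out each mouse. Some further pathway genes are not reported here.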

Additional observations from a re-analysis of the deposited data

Results flagged for a closer look

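Among 154 control groups of at least 4 mice examined for the genes with mouse values, 9 had 1 mouse far from the rest, where chance gives about 1 in 20. Mouse 253 was apart in lumbar neurons at day 10 for Sv2b, at 76.8 RPKM (others 95.6 to 96.6), and Erc2, at 11.0 (7.20 to 7.25), and in vagus at day 10 for Rab3b, at 180.6 (48.2 to 62.6). Mouse 252 was low in facial neurons at day 10 for Synpr, at 5.45 (14.7 to 16.0), and Erc2, at 5.23 (9.47 to 10.1). At day 2 mouse 26 was apart for Syngr1 in hypoglossal neurons, at 37.9 (21.9 to 22.4), and Erc2 in red nucleus, at 22.4 (29.0 to 30.1). At day 2 mouse 28 was at 1011 for Snap25 in lumbar neurons (707 to 758), and mouse 14 at 39.8 for Doc2b in red nucleus (22.7 to 25.1).

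The change from day 2 to day 10 in controls differed between populations, by limma's F test, for 12 rows. The adjusted p was 1.16e-07 for Napb, 3.54e-07 for Cplx1, 2.46e-05 for Erc2, 0.00012 for Stx1a, 0.00205 for Vamp1, 0.00805 for Rab3c, 0.0213 for Sncg, 0.0313 for Cplx3 (which passed the filter through 3 ocular samples of day 10), 0.0314 for Rab3d, 0.0445 for Syngr3, 0.0461 for Vamp2 and 0.0494 for Rab3b.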

How the results depend on the processing

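When a fit held day 2 and day 10 controls alone, 21 maturation tests were higher (40 with all groups) and 12 lower (23); facial neurons had 4 higher, vagus 0, hypoglossal neurons 2 higher and 0 lower, and red nucleus 5 higher and 0 lower. Without the filter hypoglossal neurons had 1 lower. Leaving out each mouse gave 27 to 43 higher and 19 to 25 lower in all. Counts of higher rows were 3 to 9 in ocular, 6 to 11 in facial, 1 to 5 in vagus, 3 to 6 in hypoglossal and 8 to 12 in red nucleus samples. Counts of lower rows were 0 to 1 in vagus, 0 to 2 in hypoglossal and 3 to 7 in red nucleus samples. Changes that differed between populations numbered 6 to 11, and ocular against lumbar calls 9 to 13. With a replicate block for the mouse, 34 rows differed among populations, 14 were higher and 9 lower in red nucleus, 89 calls were made among motor populations, 13 between ocular and lumbar, and 12 changes differed between populations. The block ended the calls of Rab3a and the first Pclo row in red nucleus, Unc13b in lumbar, and Syn2 and Synpr between ocular and lumbar neurons. No paired analysis of genotype or age was possible because each mouse has 1 genotype and 1 age. No result changed its direction in any alternative, and over the alternatives of all single calls 4181 values kept the call and 322 did not. Genotype calls were 0 in each. DESeq2 and edgeR were not run. The cause of these changes was not tested. Groups of 3 to 7 mice limit what could pass, and levels near 1 RPKM rest on few reads.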

Other observations

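Other genes of the terminal were counted in vagus controls in the same way. Of 22 priming and active zone genes outside the set above, 11 were higher and 5 lower in vagus than in the other motor populations (15.6% and 13.2% of all genes). Of 23 vesicle membrane and filling genes 10 were higher and 2 lower, the latter a smaller share than among all genes. The vesicular transporter genes Slc17a6 (glutamate) and Slc32a1 (inhibitory transmitters) were among those higher in vagus. Slc17a6 is also a red nucleus marker and Slc32a1 an inhibitory neuron marker used above. The part of other captured cells in these values was not tested. With age, the synaptic effector gene Rph3a rose in ocular, facial and hypoglossal neurons, where Erc1, Cask and Lin7c, all scaffold genes, fell.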
